A study of Mus musculus with 12 samples.

Results

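The genes described here are 10 genes listed as targets of CD40 signaling, of which the study drew all but Ccl3. They are Ccl22, Ccl3, Ccl4, Kcnn4, Gadd45b, Litaf, Lgals1, Ell2, Batf and Bop1. Each was found by its symbol in the deposited expression table, which holds 24063 gene symbols, and the transcript with the highest mean over all 12 libraries stood for the gene. All 10 also passed the filter on low values (3 or more libraries with an RPKM of 1 or more) and were among the 13704 genes tested. RPKM is used as deposited, in reads per kilobase of transcript per 10000000 transcript-assigned reads. The members other than Ccl3 were chosen by the study on the expression difference between genotypes in these same libraries. The genotype differences below are therefore given as a description without a test. Of the 10, 9 are named in the naive panel of its heat map (Bop1 is taken from a label spelled BOPP1) and Lgals1, Ccl4 and Batf in the GC panel, while Ccl3 is in neither panel.

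RNA of B cells sorted from the spleens of C57BL/6 mice, 8 to 10 weeks old, was sequenced as 12 libraries in 4 groups of 3. Naive B cells were B220+ splenocytes of unimmunized mice, and germinal center (GC) B cells were B220+PNA+GL7+ cells taken on day 14 of the response to injected sheep red blood cells. Each cell type came from wild-type (WT) littermates and from B-KO mice, which carry floxed miR-146a and the CD21-cre driver, active from the mature B cell stage on. Libraries held 22945634 to 39118206 transcript-assigned reads and correlated within groups at r = 0.97 to 0.99 (Pearson, log2 of RPKM + 1, across genes). The 7 general B cell markers, Cd79a and Cd79b among them, were present in every group, with summed RPKM of 34700 to 45500 in naive and 27500 to 31700 in GC libraries, and the 9 GC markers (Bcl6, Rgs13 and others) summed to 299 to 1650 in naive and 7910 to 11900 in GC libraries. The RNA is from bulk populations, so a smaller share of a cell type and less RNA per cell cannot be told apart.

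CD40 is a receptor of the tumor necrosis factor receptor family on B cells. When CD40 ligand on a helper T cell binds it, adaptor proteins of the TRAF family activate NFκB and MAP kinases, and the B cell proliferates, changes its adhesion and chemokine genes and can enter or persist in a GC. miR-146a is a microRNA that lowers the output of target mRNAs through matches to its seed, the bases near its 5′ end, and is known as a brake on TRAF6 and IRAK1 upstream of NFκB. The mature sequence is printed because its deletion separates the genotypes, with the seed (bases 2 to 8) in capitals (RefSeq, GRCm38.p6, chr11:43374435-43374456, minus strand).
mmu-miR-146a-5p: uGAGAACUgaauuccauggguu

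None of the 10 genes carries a 7-base match to that seed (AGTTCTC) in its longest annotated 3′ UTR (GENCODE vM21, GRCm38), against 12.1% of the 11793 tested genes with an annotated 3′ UTR. Their UTRs were short, with a median length of 483.5 bases against 1094 for tested genes, and no match says only that these letters are not in the UTRs searched.

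Promoters are shown for Gadd45b, Kcnn4 and Ell2, the 3 members with the smallest p between GC and naive B cells. The 250 bases before the annotated start are printed in the direction of transcription (RefSeq, GRCm38.p6), with the letters of a CAAT box (CCAAT), of a TATA box (TATAAA) and of a GC box (GGGCGG) on either strand in capitals. These 3 motifs were chosen after the sequences were seen. Gadd45b lies at chr10:80929841-80930090, Kcnn4 at chr7:24370013-24370262 and Ell2 at chr13:75707234-75707483, all on the plus strand.
Gadd45b: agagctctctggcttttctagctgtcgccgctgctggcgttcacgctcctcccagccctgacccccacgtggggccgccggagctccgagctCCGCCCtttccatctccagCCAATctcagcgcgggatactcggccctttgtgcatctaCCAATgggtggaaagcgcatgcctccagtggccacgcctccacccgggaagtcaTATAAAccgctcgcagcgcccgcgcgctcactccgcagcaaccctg
Kcnn4: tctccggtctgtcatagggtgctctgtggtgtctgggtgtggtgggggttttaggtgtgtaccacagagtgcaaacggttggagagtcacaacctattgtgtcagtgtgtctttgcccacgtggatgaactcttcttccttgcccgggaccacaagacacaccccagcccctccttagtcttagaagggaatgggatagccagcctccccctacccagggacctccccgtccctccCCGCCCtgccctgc
Ell2: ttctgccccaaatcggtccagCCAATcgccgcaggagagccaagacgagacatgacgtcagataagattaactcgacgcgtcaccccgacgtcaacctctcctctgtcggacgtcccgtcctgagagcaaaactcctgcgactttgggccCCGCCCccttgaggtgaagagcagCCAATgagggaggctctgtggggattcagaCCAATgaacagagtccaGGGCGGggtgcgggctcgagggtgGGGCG
The Gadd45b window holds TATAAA from 46 bases before the start, CCAAT from 139 and 100 bases before it and GGGCGG from 158. Ell2 has CCAAT from 229, 76 and 46 bases before the start and GGGCGG from 100, 29 and 5 bases before it, the last of which runs past the start. Kcnn4 holds GGGCGG alone, from 14 bases before the start.

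Of the 10 members 7 had a promoter window of 300 bases, from 250 before to 50 after the start (Batf, Ccl22, Ccl3, Ell2, Gadd45b, Kcnn4 and Litaf). CCAAT was found in 2 of them, TATAAA in 1 and GGGCGG in 5, against 37.4%, 13.6% and 35.7% of the 32851 windows of this length. The windows of Gadd45b, Litaf and Ell2 hold 24, 24 and 23 CpG dinucleotides, and those of Ccl3 and Kcnn4 hold 3 and 6, against a median of 7. None of the 7 windows held a match to the NFκB consensus (4.51% of all windows) or to the AP-1 motif TGANTCA (7.81%), searched on both strands. A match in these letters is a description of sequence, and its absence says nothing about binding.

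The comparison of GC with naive B cells asks how the 10 genes differ between the cells that have entered the GC reaction and those that have not. Averaged over genotypes its weights are orthogonal to those of both genotype contrasts, and it is the test used for the members. Orthogonal weights do not make it independent of how the members were chosen. Of the 9 GC markers 8 were also positive in naive B cells for B-KO against WT (median log2 fold change 1.73). How far the choice of members sets the share higher in GC B cells was not tested. By limma with Benjamini-Hochberg adjustment over all 13704 genes, 7 of the 10 were higher in GC B cells (Gadd45b, Kcnn4, Ell2, Litaf, Bop1, Ccl22 and Batf) and 0 were lower, whereas 36.6% of all genes were called higher and 34.7% lower. The number lower was also 0 at an unadjusted p under 0.05 and with limma voom on recovered reads, here and within each genotype. The median log2 fold change was 0.57 for the members and 0.01 for all genes tested.

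**Figure D1:**
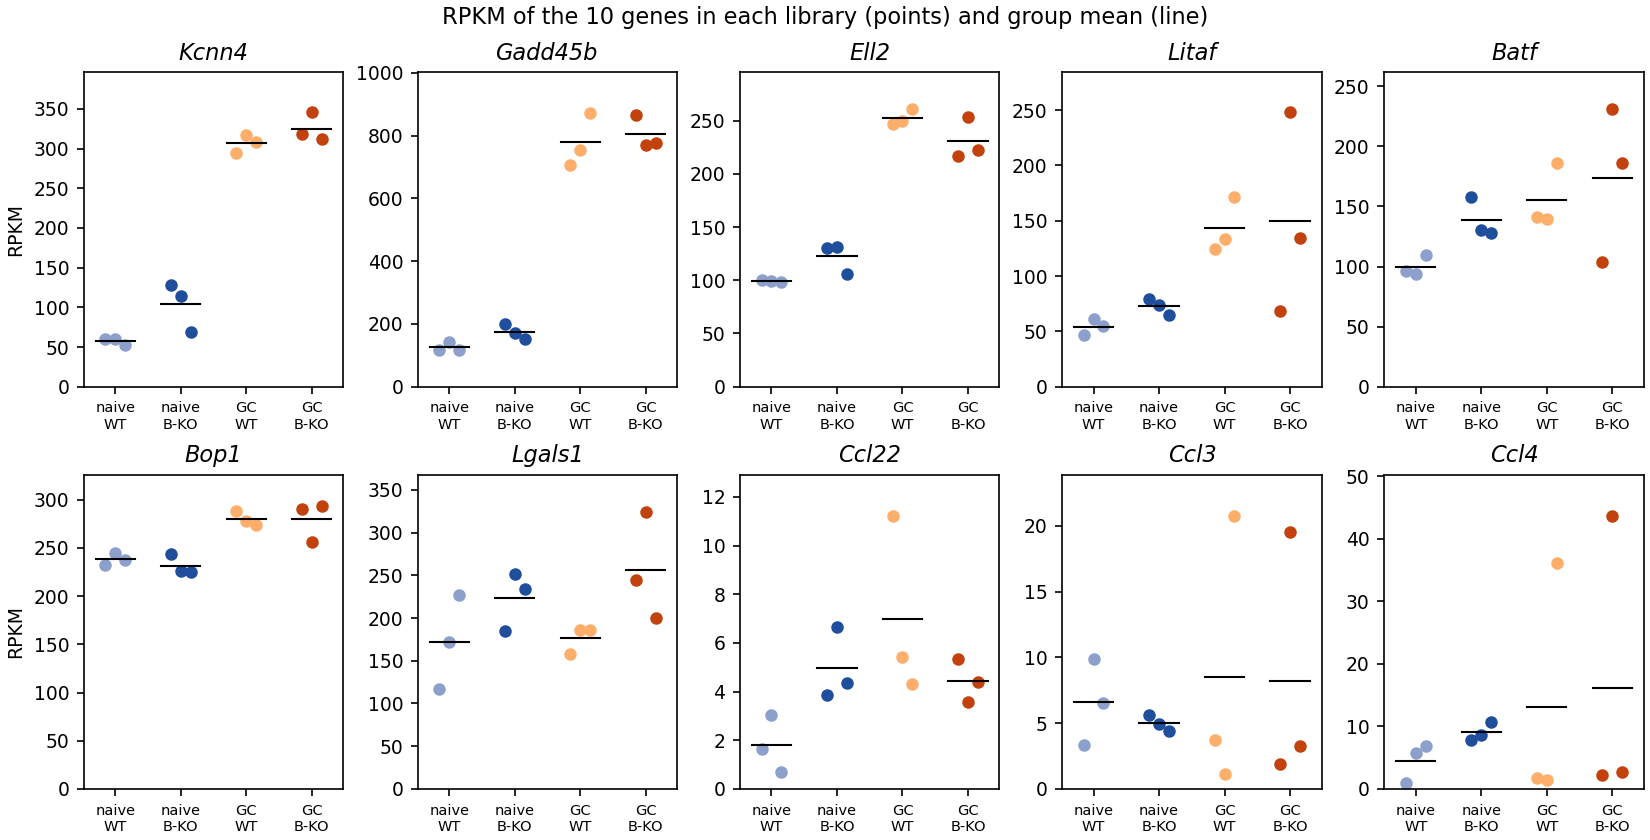
RPKM (linear axes from 0) of each of the 10 genes in the 12 libraries, with 3 points per group and a line at the group mean. The 6 GC libraries sit above all 6 naive libraries for Kcnn4, Gadd45b, Ell2 and Bop1, while Ccl3 and Ccl4 are highest in 1 WT and 1 B-KO GC library.

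Gadd45b (mm10, chromosome 10, 80930091 to 80932204) encodes a small stress-response protein that binds kinases of the p38 and JNK pathways and is a known early NFκB target. In WT naive B cells it was at 116, 142 and 117 RPKM and in B-KO naive B cells at 199, 171 and 153 RPKM. In GC B cells it was at 707, 754 and 873 RPKM in WT and at 866, 768 and 776 RPKM in B-KO. Every GC library lay above every naive library, and GC libraries of the genotypes overlapped. The rise was 5.34-fold (log2 fold change 2.42, SE 0.08, limma adjusted p = 5.07e-08), the largest of the 10.

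Kcnn4 (mm10, chromosome 7, 24370263 to 24385212) encodes the intermediate-conductance calcium-activated potassium channel of lymphocytes, which helps sustain calcium entry. Its level was 59.6, 59.7 and 53.2 RPKM in WT and 128, 114 and 69.4 RPKM in B-KO naive B cells. In GC B cells it reached 295, 317 and 308 RPKM in WT and 319, 346 and 312 RPKM in B-KO. The 6 GC libraries lay close together and far above the naive ones, and the B-KO naive libraries were spread over a wider range than the WT ones. The rise was 4.11-fold (log2 fold change 2.04, SE 0.12, limma adjusted p = 2.11e-07).

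Ell2 (mm10, chromosome 13, 75707484 to 75772358) encodes a transcription elongation factor of RNA polymerase II, known in plasma cells for its part in producing secreted immunoglobulin mRNA. Naive levels were 99.8, 99.6 and 98.3 RPKM in WT and 130, 132 and 106 RPKM in B-KO. GC levels were 247, 250 and 260 RPKM in WT and 217, 253 and 223 RPKM in B-KO. WT naive libraries lay close together, and all GC libraries stood above all naive ones. The rise was 2.18-fold (log2 fold change 1.12, SE 0.06, limma adjusted p = 1.46e-07).

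Litaf (mm10, chromosome 16, 10959273 to 10993121) encodes a small protein of late endosomes and lysosomes, named for the lipopolysaccharide-induced regulation of tumor necrosis factor. It was at 46.3, 61.6 and 54.4 RPKM in WT naive, 78.8, 73.9 and 64.8 RPKM in B-KO naive and 124, 134 and 171 RPKM in WT GC B cells. In B-KO GC B cells it was at 68.1, 248 and 134 RPKM, so that replicate 1 fell inside the naive B-KO range and replicate 2 was the highest of all 12 libraries. The rise over both genotypes was 2.17-fold (log2 fold change 1.12, SE 0.25, limma adjusted p = 0.00179).

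Batf (mm10, chromosome 12, 85686720 to 85709087) encodes a basic leucine zipper factor that pairs with Jun proteins and IRF4 and is needed for class-switch recombination in activated B cells. It was at 96.3, 93.7 and 110 RPKM in WT naive and 158, 131 and 128 RPKM in B-KO naive B cells. WT GC libraries were at 141, 139 and 186 RPKM and B-KO GC libraries at 104, 231 and 186 RPKM. The B-KO GC libraries again spanned the widest range, from below the B-KO naive libraries to the highest value measured. The rise was 1.35-fold (log2 fold change 0.44, SE 0.17, limma adjusted p = 0.0375), and the adjusted p was 0.104 without the filter on low values, 0.0657 after quantile normalization and 0.0512 with limma voom. Leaving out any of 7 single libraries also ended the call (adjusted p up to 0.0818).

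Bop1 (mm10, chromosome 15, 76452996 to 76477269) encodes a subunit of the PeBoW complex, which processes the RNA of the large ribosomal subunit. Its naive levels, 232, 245 and 238 RPKM in WT and 244, 226 and 225 RPKM in B-KO, differed little between libraries. GC levels were 288, 278 and 274 RPKM in WT and 291, 256 and 293 RPKM in B-KO. The GC libraries all lay above the naive ones, by 1.19-fold on average (log2 fold change 0.25, SE 0.05, limma adjusted p = 0.000419), the smallest rise among the 7 called.

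Lgals1 (mm10, chromosome 15, 78926725 to 78930465) encodes galectin-1, a secreted lectin that binds galactose-bearing surface glycans and is known as a product of activated B cells and plasma cells. It was at 116, 172 and 227 RPKM in WT naive and 185, 251 and 234 RPKM in B-KO naive B cells. GC levels were 158, 186 and 186 RPKM in WT and 245, 324 and 200 RPKM in B-KO. Naive and GC libraries overlapped in both genotypes, and the GC difference did not pass (log2 fold change 0.14, SE 0.16, limma adjusted p = 0.476).

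Ccl22, Ccl3 and Ccl4 are the 3 chemokine genes of the set and were the least abundant members. CCL22 draws cells bearing CCR4, including regulatory and helper T cells, and CCL3 and CCL4 draw monocytes and T cells. Counts recovered from the RPKM were 4 to 70 reads per library for Ccl22, 3 to 50 for Ccl3 and 2 to 93 for Ccl4, so that low values rest on a few reads. Ccl22 (mm10, chromosome 8, 94745684 to 94751388) stood at 1.63, 3.02 and 0.708 RPKM in WT naive, 3.86, 6.66 and 4.34 in B-KO naive, 11.2, 5.43 and 4.30 in WT GC and 5.32, 3.57 and 4.39 in B-KO GC B cells. The 3 WT naive libraries were below all 9 others. Averaged over the genotypes Ccl22 was 1.62-fold higher in GC B cells on the log2(RPKM + 1) scale (log2 fold change 0.69, SE 0.26, limma adjusted p = 0.0329). Within genotypes the log2 fold change was 1.51 in WT and -0.12 in B-KO. The low WT naive values enter both the averaged call and the genotype difference on which the gene was drawn. The call was lost without the filter on low values (limma adjusted p = 0.0825) and after quantile normalization (limma adjusted p = 0.0509). Leaving out any of 7 single libraries ended it as well (adjusted p up to 0.0784).

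Ccl3 was at 3.34, 9.88 and 6.51 RPKM in WT naive and 5.61, 4.96 and 4.44 RPKM in B-KO naive B cells. In GC B cells it was at 3.69, 1.14 and 20.7 RPKM in WT and 1.88, 19.5 and 3.26 RPKM in B-KO. Ccl4, its neighbor on chromosome 11 (mm10, 83662584 to 83664683, with Ccl3 at 83647843 to 83649378 on the other strand), was at 1.001, 5.70 and 6.83 RPKM in WT naive and 7.85, 8.65 and 10.7 RPKM in B-KO naive B cells. Its GC levels were 1.77, 1.36 and 36.2 RPKM in WT and 2.26, 43.6 and 2.73 RPKM in B-KO. For both genes the same 2 GC libraries, WT replicate 3 and B-KO replicate 2, were the highest of the 12, and the other 4 GC libraries were at or below 3.69 RPKM. Neither difference passed (Ccl3 log2 fold change -0.08, SE 0.59, adjusted p = 0.913, and Ccl4 0.06, SE 0.82, adjusted p = 0.955, both from limma).

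Those 2 libraries also stood apart in immediate early genes, a list of 16 genes such as Fos, Jun and Egr1 that respond to stimulation within minutes and also to handling of cells. The summed RPKM of the list was 10400 in WT replicate 3 and 9650 in B-KO replicate 2 and 2560 to 4547 in the other GC libraries, with 3840 to 5420 in naive libraries, and its part in the values of Ccl3, Ccl4, Litaf and Batf was not tested. An alternative without the 2 libraries was added after the data were seen. From naive to GC B cells, Ccl3 was then at -0.97 (limma adjusted p = 0.0165) and Ccl4 at -1.20 (limma adjusted p = 0.012) on the log2 scale. The 2 libraries left out hold the highest Ccl3 and Ccl4 values, so nothing is read from these calls. Without the same libraries Batf was at 0.25 (limma adjusted p = 0.152), below the value with all libraries. Gadd45b, Kcnn4, Ell2, Litaf, Bop1 and Ccl22 kept their calls.

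**Figure D2:**
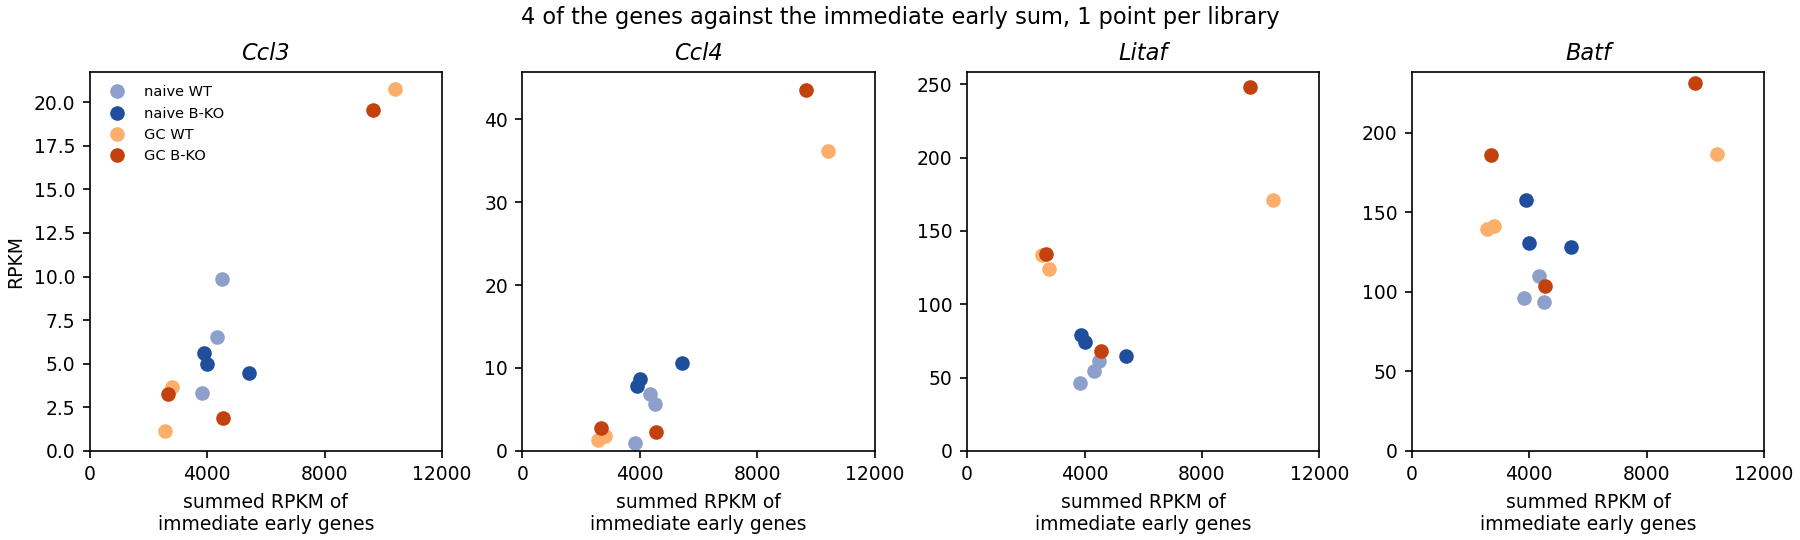
RPKM of Ccl3, Ccl4, Litaf and Batf (y axes) against the summed RPKM of 16 immediate early genes (x axis), with 1 point per library and color for group. GC WT replicate 3 (sum 10400) and GC B-KO replicate 2 (sum 9650) lie to the right and hold the 2 highest values of Ccl3, Ccl4 and Litaf.

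Within genotypes the same comparison shares libraries with the genotype contrasts on which the genes were drawn, which has to be kept in view for both sets of values. In WT 7 of 10 members were higher in GC B cells and 0 lower, against 31.7% and 30.2% of all genes. In B-KO 4 of 10 were higher (Gadd45b, Kcnn4, Ell2 and Bop1) and 0 lower, against 30% and 27.5% of all genes. The members' medians were 0.98 in WT and 0.26 in B-KO. Gadd45b rose by 2.63 in WT and 2.20 in B-KO on the log2 scale (SE 0.12 each, limma adjusted p = 8.21e-07 and 4.47e-06). Kcnn4 rose by 2.40 and 1.68 (SE 0.17 each, limma adjusted p = 2.57e-06 and 2.69e-05), and Ell2 by 1.34 and 0.91 (SE 0.09 each, limma adjusted p = 2.08e-06 and 1.91e-05).

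Litaf rose by 1.38 in WT (SE 0.35, limma adjusted p = 0.00523) and was at 0.85 in B-KO (SE 0.35, limma adjusted p = 0.0562). The B-KO value rested on single libraries, at 1.32 (limma adjusted p = 0.00139) without GC replicate 1 and 0.40 (limma adjusted p = 0.198) without GC replicate 2. Batf rose by 0.62 in WT (limma adjusted p = 0.0414), a call lost in 14 of 26 alternatives, among them leaving out any single GC WT or naive WT library (adjusted p up to 0.13). In B-KO it was at 0.25 (limma adjusted p = 0.391), and between 0.007 (limma adjusted p = 0.981) without GC B-KO replicate 2 and 0.58 (limma adjusted p = 0.0103) without GC B-KO replicate 1. Ccl22 rose by 1.51 in WT (SE 0.37, limma adjusted p = 0.00435) and was at -0.12 in B-KO (SE 0.37, limma adjusted p = 0.802). Bop1 rose by 0.23 and 0.27 (SE 0.06 each, limma adjusted p = 0.00841 and 0.00391), and both calls were lost after quantile normalization (adjusted p = 0.152 in WT and 0.0792 in B-KO). Whether the WT and B-KO values of a gene differ was not tested, because that difference equals the difference of both genotype contrasts.

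**Figure D3:**
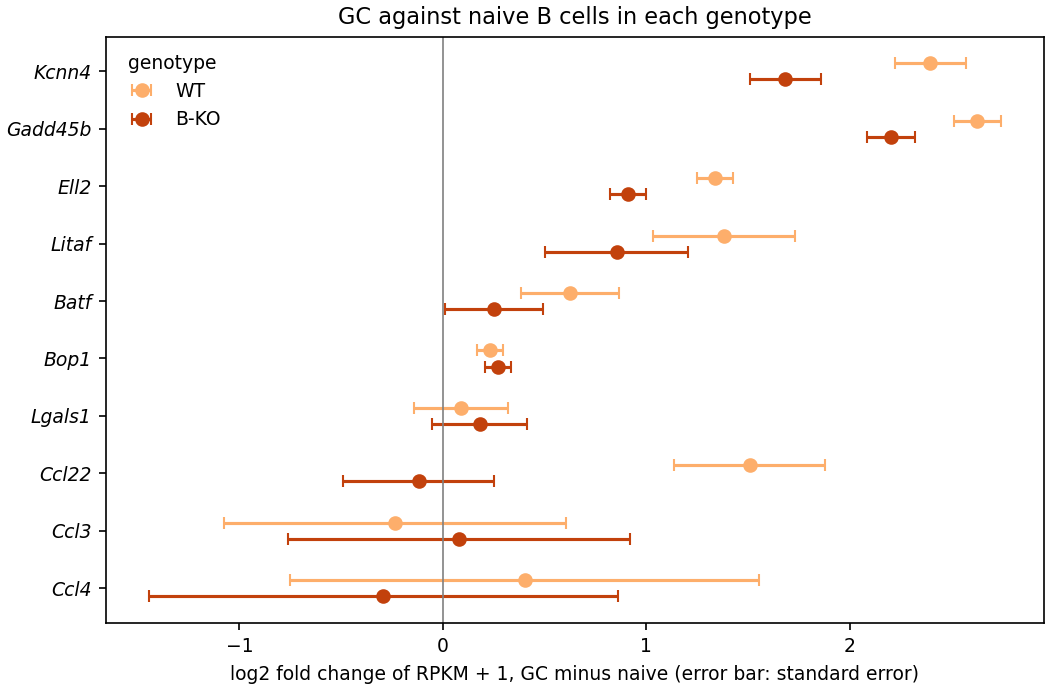
log2 fold change of RPKM + 1 from naive to GC B cells (x axis) of the 10 genes (y axis) in WT and B-KO, with the standard error from limma as the bar. Values run from -0.24 (Ccl3) to 2.63 (Gadd45b) in WT and from -0.29 (Ccl4) to 2.20 (Gadd45b) in B-KO, and Ccl22 has the widest gap between the genotypes.

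The comparison of B-KO with WT asks what loss of miR-146a in B cells does to these genes. It is the one on which the study drew all but Ccl3. In naive B cells 8 of the 10 had a positive log2 fold change, with a median of 0.44, while 56.6% of all genes were positive with a median of 0.02. For 7 members (Ccl22, Ccl4, Kcnn4, Gadd45b, Litaf, Ell2 and Batf) all 3 B-KO libraries lay above all 3 WT libraries, and for 0 they lay below, against 6.3% above and 3.08% below among all genes. Since all members but Ccl3 were drawn for this contrast, nothing is read from these shares. The log2 fold changes in naive B cells were 1.15 for Ccl22, 1.08 for Ccl4, 0.80 for Kcnn4, 0.47 for Gadd45b, 0.47 for Batf, 0.42 for Litaf, 0.42 for Lgals1 and 0.29 for Ell2. Bop1 was at -0.04 and Ccl3, which is in neither panel, at -0.24. Without WT replicate 1 Ccl4 was at 0.46 and Lgals1 at 0.17, and without WT replicate 2 Ccl3 was at 0.07.

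In GC B cells 6 of 10 members were positive, with a median of 0.06, while 58.5% of all genes were positive with a median of 0.03. Lgals1 alone did not overlap between the genotypes, with B-KO above WT (6.08% of all genes did so, and 3.21% lay below), and its log2 fold change was 0.51 (SE 0.23). Ccl4 was at 0.39 with a standard error of 1.15, with a single high library in each genotype. Ccl22 was at -0.47 (SE 0.37), and the other 7 lay between -0.13 (Ell2) and 0.09 (Batf). Several of these rest on single libraries. With 1 library left out, Ccl3 ran from -0.78 (without B-KO replicate 2) to 0.997 (without WT replicate 3), Ccl4 from -0.84 to 1.67 without the same libraries, and Litaf from -0.56 (without B-KO replicate 2) to 0.36 (without B-KO replicate 1). The number of positive members then ran from 4 to 7.

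In the naive groups the GC marker sum moved with several members. It was 299 to 550 in the 3 WT libraries and 1650, 870 and 491 in B-KO replicates 1, 2 and 3, and the cell cycle sum was 836 to 1080 in WT and 2010, 1430 and 950 in B-KO. Among the B-KO libraries Kcnn4 (128, 114 and 69.4 RPKM), Gadd45b, Litaf, Batf, Ccl3 and Bop1 followed the order of the GC marker sum, Ccl4 ran in the opposite order (7.85, 8.65 and 10.7 RPKM), and Ccl22, Lgals1 and Ell2 followed neither. B-KO replicate 3, whose GC marker sum was inside the WT range, was above all 3 WT naive libraries for 8 of 10 members (23.1% of all tested genes were). Nothing is read from this, since all members but Ccl3 were drawn for this contrast. The log2 difference of B-KO replicate 3 from the WT mean was 1.30 for Ccl4, 1.02 for Ccl22, 0.50 for Lgals1, 0.36 for Batf, 0.29 for Gadd45b, 0.27 for Kcnn4, 0.27 for Litaf and 0.09 for Ell2. Of these 8 values 6 were below the difference averaged over the 3 B-KO libraries given above, and those for Ccl4 and Lgals1 were above it. A sort on B220 alone does not remove GC B cells. The part of GC B cells in the naive differences was not tested.

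**Figure D4:**
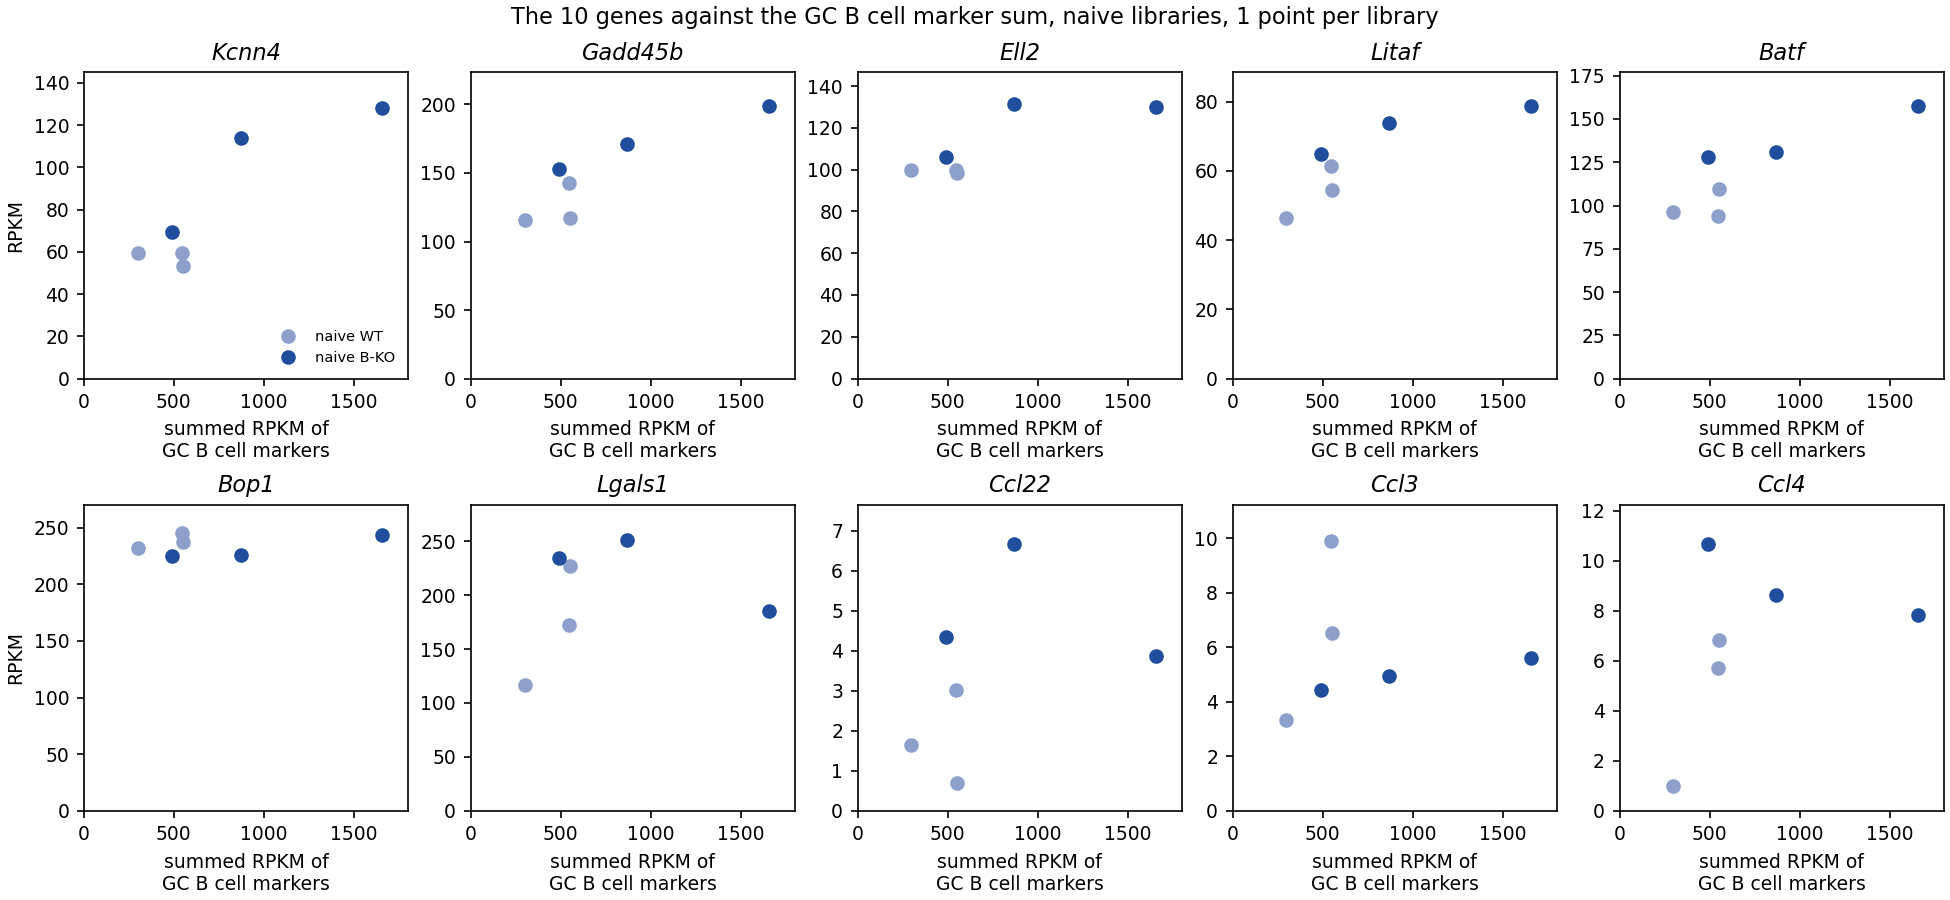
RPKM of the 10 genes (y axes) against the summed RPKM of 9 GC B cell markers (x axis) in the 6 naive libraries, 1 point each. The 3 WT libraries lie at marker sums of 299 to 550 and the B-KO libraries at 491, 870 and 1650, and Kcnn4 is at 69.4, 114 and 128 RPKM in these B-KO libraries.

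Markers of other cells were also read beside these values. The summed RPKM of 17 macrophage and dendritic cell markers was 187 to 317 in WT naive, 283 to 594 in B-KO naive, 450 to 854 in WT GC and 716 to 948 in B-KO GC libraries. For 10 T and NK cell markers it was 270 to 542, 313 to 430, 572 to 742 and 363 to 754, and for 7 plasma cell markers 560 to 662, 668 to 1030, 1220 to 1350 and 1280 to 1660, in the same order of groups. The T and NK sum was carried by Lck (166 and 199 RPKM in WT and B-KO naive, 591 and 513 RPKM in GC B cells), while 6 of the 10 markers were lower in GC B cells and 2 higher, with a median of -1.58 on the log2 scale (Ncr1 -2.86, Gzma -2.54). Of the 7 plasma cell markers 4 were higher in GC B cells and 2 lower (median 0.60), with Slamf7 at 1.64 and Sdc1 at -1.84. Of the 17 macrophage and dendritic cell markers 10 were higher and 2 lower (median 1.34), with Siglech at -4.39. In WT S100a8 and S100a9 averaged 11.8 and 13.2 RPKM in naive and 168 and 207 RPKM in GC B cells. In B-KO they averaged 55.45 and 61.16 RPKM and 127 and 137 RPKM. For 7 erythroid and platelet markers the summed RPKM was 372 to 457, 593 to 1090, 29.7 to 276 and 142 to 201, in the same order of groups. No marker in these lists was at 0 in all libraries. Ccl3, Ccl4, Ccl22 and Lgals1 are also expressed by macrophages, dendritic cells or T cells. The part of other cells in the values of these and of the other members, Litaf and Batf among them, was not tested.

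How the members vary together was described by Pearson correlation of log2(RPKM + 1). Over the 12 libraries, which share the large step from naive to GC, Kcnn4 and Ell2 correlated at r = 0.99, Gadd45b and Ell2 at 0.98 and Gadd45b and Kcnn4 at 0.98. After the group means were removed, Kcnn4 and Ell2 were at 0.86 and Gadd45b and Ell2 at 0.38. Ccl3 and Ccl4 were at 0.89 over the 12 libraries and 0.95 within groups, and Litaf and Batf at 0.90 and 0.92. Ccl3 was at 0.77 with Litaf and 0.72 with Batf within groups, where the 2 libraries with high immediate early sums are among the points. The highest within-group correlation of Ccl22 with another member was 0.33, with Bop1.

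The tested genes whose values were most like each member over the 12 libraries were also named. For Kcnn4 they were Nt5e (r = 0.997), Pmvk (0.996) and Slc22a15 (0.994), and for Gadd45b they were Marcksl1 (0.997), Lima1 (0.994) and Clip2 (0.994). For Ell2 they were Tmem38b, Dcbld1 and Fut8 (0.991 to 0.996), for Bop1 D330041H03Rik, Fam57a and Mprip (0.97 to 0.98), for Litaf Rasgef1a, Atp6v1c2 and Lipg (0.96 to 0.97), and for Batf Prdm1, Rasgef1a and Pip4k2c (0.93 to 0.94). Lgals1 and Ccl22 had weaker matches, with Chid1 (0.85), Ccdc23 (0.85) and Pycard (0.85) for Lgals1 and Bcl2a1a (0.90), Wdr83os (0.84) and Pabpc1l (0.83) for Ccl22. Bcl2a1a has near-identical copies and its reads may be split among them. Ccl3 was most like Kdm6b (0.93), 0610040F04Rik (0.93) and Irs2 (0.92), and Ccl4 like Gm11974 (0.95), 0610040F04Rik (0.95) and Irs2 (0.92). Within groups, Ccl3 was closest to Nfkbie (0.98), Impdh1 (0.98) and Tob2 (0.97), Ccl4 to Arl4c (0.99), Lgals3 (0.98) and Med13 (0.98), Ccl22 to Slc9a8, Haghl and Ccdc176 (0.91 to 0.93), and Gadd45b to Gapvd1, H2-Eb2 and Agpat6 (0.94 to 0.95). These rest on 12 libraries, and the highest of many correlations is high by selection.

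Cd40 itself went the other way from most members. It was at 537 ± 46.9 (SD, n = 3) RPKM in WT naive and 537 ± 42.2 (SD, n = 3) RPKM in B-KO naive B cells, and at 346 ± 23.3 (SD, n = 3) and 381 ± 28.4 (SD, n = 3) RPKM in GC B cells. It fell by 0.56 on the log2 scale from naive to GC B cells (SE 0.06, limma adjusted p = 1.21e-05). Among 35 tested genes of a wider list of CD40- and NFκB-induced genes, 15 were higher in GC B cells, 10 were lower and 10 did not pass, with a median of 0.26, where 36.6% of all tested genes were higher and 34.7% lower. Fas, the death receptor, rose by 3.43, Tnfsf9 (4-1BB ligand) by 3.07 and Cd86, a costimulatory ligand, by 1.40 on the log2 scale. The NFκB subunit genes Nfkb2, Relb and Nfkb1 fell by 0.68, 0.58 and 0.51, while the subunit gene Rel was at 0.07 (limma adjusted p = 0.806). Icosl, the ligand of ICOS, dropped by 1.29. In the genotype comparison 30 of the 35 were positive in naive B cells (median 0.10) and 24 in GC B cells (median 0.03), where 56.6% and 58.5% of all genes were positive.

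The relatives and partners of single members are given list by list, and no list was tested as a set. Among all tested genes 36.6% were higher in GC B cells and 34.7% lower, the shares to set beside the counts of each list. For the 9 tested CC chemokines and receptors of the member chemokines, 3 were higher in GC B cells (Ccl25, Ccl6 and Ccr4), 3 were lower and 3 did not pass. Ccr1, a receptor of CCL3, fell by 2.04 on the log2 scale, and Ccr4, the receptor of CCL22, rose by 1.06 from a mean of 0.19 RPKM in WT naive B cells. Ccl5 was at 131 and 87.2 RPKM in naive and 34.9 and 29.0 RPKM in GC B cells (WT and B-KO means), a fall of 1.93 (SE 0.41, limma adjusted p = 0.00133). Ccl1, Ccl7, Ccl11, Ccl12, Ccl19 and Ccl20 were listed at 0 in all libraries.

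The tested galectins other than Lgals1 (Lgals3, Lgals4, Lgals8 and Lgals9) and Lgals3bp, which encodes a galectin-3-binding protein, were all lower in GC B cells, with a median of -1.85 on the log2 scale over these 5 genes. Lgals9 was at 502 and 420 RPKM in naive and 98.7 and 179 RPKM in GC B cells (WT and B-KO means), and Lgals8 at 392 and 381 and at 154 and 177 RPKM. Among the relatives and partners of Gadd45b 0 of 4 were higher and 2 lower, against 36.6% and 34.7% of all tested genes. Gadd45g, which encodes a protein of the same family, fell by 1.34 (SE 0.41, limma adjusted p = 0.0123), while Gadd45a was at 0.52 (SE 0.27, limma adjusted p = 0.106). Map3k4, the kinase bound by GADD45 proteins, was at 0.01 (SE 0.08, limma adjusted p = 0.926).

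Among 11 genes of the ELL family and its elongation complex 5 were higher, 4 lower and 2 did not pass. Eaf2, which encodes a partner of ELL proteins, rose by 3.62 on the log2 scale (SE 0.21, limma adjusted p = 1.65e-07), from 31.2 and 71.6 RPKM in naive to 551 and 583 RPKM in GC B cells, and Ell fell by 0.45 (SE 0.08, limma adjusted p = 0.000304). Among 9 genes of potassium channels and calcium entry 4 were higher and 5 lower, with the calmodulin genes Calm3 and Calm2 up by 1.03 and 0.80. The calcium channel genes Orai3, Orai1 and Orai2 fell by 0.70, 0.60 and 0.45. Among 6 relatives and partners of Batf, Irf8 was higher (log2 fold change 0.24, SE 0.08, limma adjusted p = 0.0223) and 5 did not pass, with Junb at 0.94 (SE 0.45, limma adjusted p = 0.0826) and Irf4 at -0.72 (SE 0.39, limma adjusted p = 0.122).

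For Bop1, of 12 ribosome biogenesis genes 6 were higher in GC B cells, 2 lower and 4 did not pass, with a median of 0.18. Pes1, a PeBoW partner, rose by 0.16 (SE 0.06, limma adjusted p = 0.0204), and Wdr12, the other partner, was at 0.19 (SE 0.09, limma adjusted p = 0.0653). Ncl, Nop58 and Npm1, which encode nucleolar proteins, rose by 0.72, 0.74 and 0.59 on the log2 scale. Of 5 genes around Litaf 2 were higher, 2 lower and 1 did not pass, with Tsg101, of endosomal sorting, at 0.45 and Itch, a ubiquitin ligase, at -0.73.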

How the data were processed

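The deposited table holds RPKM for 33072 RefSeq transcripts in 12 libraries, computed by the authors with HOMER after alignment with STAR 2.2.0c (per the processing notes) and scaled by them to 10000000 reads per library. The header names mm10, and the notes name both mm9 and mm10. Reads were counted on both strands, so overlapping antisense transcripts cannot be told apart. The methods describe poly-A RNA and the labels total RNA. Reads were recovered from value and length after the scale of each library was fitted to whole reads. They were whole within 0.1 for 100% of the values checked. Those were values above 0 with a small rounding error and a low read count, so higher counts were not checked. Recovered reads bound counting error only.

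For each symbol the transcript of highest mean was kept. A linear model with a mean for each of the 4 groups was fitted to log2(RPKM + 1) in limma 3.58.1 (R 4.3.3, eBayes with a trend, 8 residual degrees of freedom), and p values were adjusted by Benjamini-Hochberg over the 13704 genes at a threshold of 0.05. Fold changes on this scale understate changes of low genes. The members and the gene lists were chosen with earlier results of these data known. Genes named beside the members are, by rule, Cd40, the 3 most correlated genes of each member (transcripts of at least 200 bases) and up to 4 genes of each list with the smallest p between GC and naive B cells. Tnfsf9, Nfkb1, Nfkb2, Relb, Rel, Ccl6, Ccr4, Ell, Gzma, Lgals3, Orai1, Orai2, Pes1, Wdr12, S100a8 and S100a9 were named after their values were seen. The study calls the 3 libraries of a group biological replicates and does not say whether each came from 1 mouse, so p values measure the spread between these libraries. The fit was also run on simulated counts with equal depth and a single spread for all genes. These libraries differ in depth and spread, so that run does not measure how well the fit works here. Alternatives were other pseudocounts and filters, every transcript, other scalings, array weights, limma voom, a replicate block, the compared groups alone, each library left out, and 2 pairs of libraries left out. Some genes of the lists are not reported here.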

Additional observations from a re-analysis of the deposited data

How the results depend on the processing

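Gadd45b, Kcnn4, Ell2 and Litaf (mean of both genotypes) kept direction and call under every alternative run, as did Bop1. The calls of Batf and Ccl22 were fragile. With single libraries left out, the log2 fold change of Batf ran from 0.32 to 0.60 (limma adjusted p 0.000472 to 0.0818) and that of Ccl22 from 0.52 to 0.85 (0.0126 to 0.0784), and without naive B-KO replicates 1 and 2 their adjusted p was 0.0806 and 0.0728. The Batf call was lost without naive WT replicate 1 or 2, naive B-KO replicate 2 or 3, GC WT replicate 3 or GC B-KO replicate 2 or 3, and that of Ccl22 without naive WT replicate 1 or 3, naive B-KO replicate 1 or 3, GC WT replicate 1 or GC B-KO replicate 1 or 3. The Litaf value in B-KO ran from 0.40 to 1.32. The Batf call in WT was lost in 14 of 26 alternatives, among them no filter (adjusted p = 0.114), quantile normalization (0.0559), limma voom (0.064) and leaving out naive B-KO replicate 2 or 3. The number of members higher ran from 5 to 7 over both genotypes, 6 to 7 in WT and 4 to 6 in B-KO. Without GC WT replicate 3 and GC B-KO replicate 2, Ccl4 was at -1.20 (limma adjusted p = 0.012). The members lower then numbered 2 over both genotypes (Ccl3 and Ccl4), 1 in WT (Ccl3, -1.16) and 1 in B-KO (Ccl4, -1.52). Those 2 libraries hold the highest Ccl3 and Ccl4 values, so nothing is read from these calls. With every transcript tested, 7295 features were lower over both genotypes, 6388 in WT and 5859 in B-KO, where more features were tested. In naive B cells without B-KO replicates 1 and 2 the genotype values of Kcnn4, Gadd45b and Ell2 were 0.27, 0.29 and 0.09, and Kcnn4 was at 1.06 without B-KO replicate 3. The GC genotype median ran from -0.17 to 0.23 with single libraries left out, so its sign rests on single libraries.

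Same-numbered libraries did not deviate together (r from -0.565 to 0.15 across genes), but with 3 libraries a group this cannot exclude a pairing by number. With the replicate block 7 members were higher over both genotypes, 6 in WT (Batf at adjusted p = 0.0501) and 5 in B-KO (Litaf at adjusted p = 0.047), and no other member changed its call. The 3 chemokine genes rest on 2 to 93 reads per library, which limits their precision, and the standard errors of their log2 fold changes within a genotype were 0.37 to 1.15.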
